A study of Mus musculus with 3 samples.

Results

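The genes described here are *Kit* and its ligand *Kitl*, the endothelin receptors *Ednrb* and *Ednra*, the endothelins *Edn1*, *Edn2* and *Edn3*, and the endothelin-converting enzymes *Ece1* and *Ece2*. They were chosen by name, as receptors, ligands and enzymes of 2 signalling routes known in melanocytes, and all 9 were found among the 22698 Ensembl genes of the files. RNA-seq was performed on untreated melan-a cells, an immortalized mouse melanocyte line of C57BL/6J background labelled in every sample as melanocytes of Ink4a-ARF-/- mice. There was 1 condition, with 3 libraries labelled as replicates 1, 3 and 4. The medium held 10% fetal bovine serum, 200 nM of the phorbol ester TPA, which activates protein kinase C, and 200 pM of cholera toxin, which raises cyclic AMP. The growth protocol lists no added KIT ligand or endothelin. The design text calls them bioreplicates, each sequenced over 3 lanes, without saying what was grown apart, so the errors describe the spread between libraries of 1 line, which may be in part technical.

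KIT is a receptor tyrosine kinase at the cell surface. Its ligand, encoded by *Kitl*, is made as a membrane protein that can be shed, in skin mostly by keratinocytes and fibroblasts, and melanoblasts need this signal to survive and migrate. Endothelins are short peptides cut from longer precursors, first by furin-like convertases and then by the endothelin-converting enzymes, and they act on the G protein-coupled receptors EDNRA and EDNRB. EDNRB binds all of the endothelins with like affinity, EDNRA prefers endothelin 1 and 2, and the pairing of endothelin 3 with EDNRB is the one needed by neural crest cells that become melanocytes and enteric neurons. Loss of any of *Kit*, *Kitl*, *Ednrb* or *Edn3* gives white-spotted mice.

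*Ednrb* was the highest of the 9 genes, and *Kit* was lower than its own ligand in every library. Values are FPKM, read numbers scaled by gene length and by library size. Mean levels were 6.63 ± 1.19 FPKM for *Ednrb*, 2.82 ± 0.65 for *Kitl* and 0.68 ± 0.10 for *Kit* (SD, n = 3). *Edn1* was the lowest gene with reads, at 0.21 ± 0.07 FPKM (SD, n = 3), and *Edn2* and *Edn3* were listed at 0 in all 3 libraries. At 1 FPKM or more in every library there were 2 of the 9 genes, *Ednrb* and *Kitl*, against 44.1% of all genes in the files. Above 0 in every library there were 7 of the 9, against 60.1% of all genes. In bulk RNA a low level can come from few cells with much RNA or from many cells with little, and these cannot be told apart here.

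**Figure D1:**
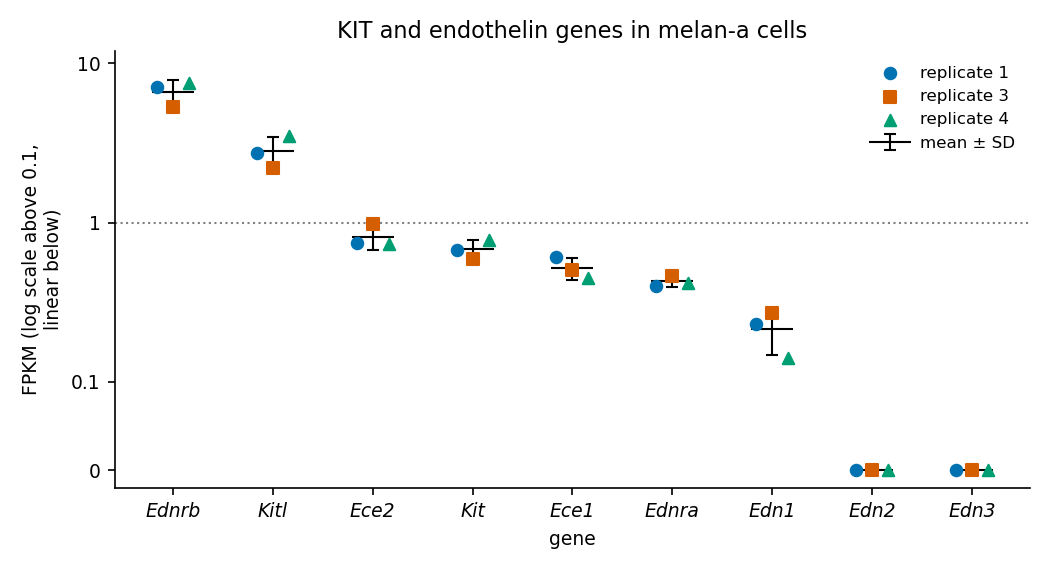
FPKM (vertical axis, logarithmic above 0.1 and linear below) of the 9 genes in replicates 1, 3 and 4, with the mean and SD of the 3 libraries as bars and a dotted line at 1 FPKM. *Ednrb* and *Kitl* lie above the line in every library, *Ece2*, *Kit*, *Ece1*, *Ednra* and *Edn1* lie below it, and *Edn2* and *Edn3* are at 0.

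The mature endothelins are so alike that their codons can be set beside each other, which shows how close the expressed ligand is to the ligands that were listed at 0. The 63 bases that encode the 21 residues of each mature peptide are shown 5′ to 3′, read from the coding transcripts of the mm9 annotation, and capitals mark the bases that differ from *Edn1*. The stretch lies in exon 2 of 5 in each gene, on the plus strand, at chr13:42399018-42399080 for *Edn1*, chr4:119834556-119834618 for *Edn2* and chr2:174587250-174587312 for *Edn3* (mm9).
Edn1: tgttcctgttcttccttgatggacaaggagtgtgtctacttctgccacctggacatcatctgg
Edn2: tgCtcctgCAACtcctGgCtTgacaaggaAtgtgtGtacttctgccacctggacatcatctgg
Edn3: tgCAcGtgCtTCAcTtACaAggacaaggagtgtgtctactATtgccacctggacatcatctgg
*Edn2* differed from *Edn1* at 10 of the 63 bases and 3 of the 21 residues, and *Edn3* at 13 bases and 6 residues. In both, the 3′ end of the stretch, which runs up to the tryptophan codon after which the converting enzymes cut, was the same as in *Edn1*.

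The study behind these files concerned TFAP2 factors, which bind a GC-rich palindrome, and MITF, which binds E-box sequences, so the promoters of the main receptors and ligands are shown with the letters of such motifs. RefSeq promoters run from 250 bases before to 50 bases after the start of a transcript, and all 9 genes had at least 1, with 13 windows in all, among them 4 for *Ece1* and 2 for *Kit*, of which 1 is shown. The windows below were matched to mm9 at chr5:75970762-75971061 on the plus strand for *Kit*, chr10:99478205-99478504 on the plus strand for *Kitl*, chr14:104242869-104243168 on the minus strand for *Ednrb* and chr2:174585870-174586169 on the plus strand for *Edn3*. The RefSeq starts lay 32, 5, 5 and 0 bases from the nearest start in the mm9 annotation. Since other transcripts start further upstream, the *Ednrb* window lies wholly and the *Kit* and *Kitl* windows partly inside the annotated gene. Capitals mark matches to the E-box letters CACGTG, the variant E-box CATGTG, the TFAP2 letters GCCNNNGGC, the SOX-like letters ACAAAG and the TATA-box letters TATAAA, searched on both strands.
Kit: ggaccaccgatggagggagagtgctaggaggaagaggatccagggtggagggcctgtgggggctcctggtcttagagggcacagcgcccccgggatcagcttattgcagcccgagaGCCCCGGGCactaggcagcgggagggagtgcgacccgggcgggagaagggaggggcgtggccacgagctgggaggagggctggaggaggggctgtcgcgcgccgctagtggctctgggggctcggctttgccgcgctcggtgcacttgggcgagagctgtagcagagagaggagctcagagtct
Kitl: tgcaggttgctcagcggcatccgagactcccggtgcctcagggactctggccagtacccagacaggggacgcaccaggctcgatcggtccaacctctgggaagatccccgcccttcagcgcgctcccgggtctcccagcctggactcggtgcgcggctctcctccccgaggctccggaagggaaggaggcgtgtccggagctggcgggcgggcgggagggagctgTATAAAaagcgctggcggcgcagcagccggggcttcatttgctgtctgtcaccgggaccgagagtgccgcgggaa
Ednrb: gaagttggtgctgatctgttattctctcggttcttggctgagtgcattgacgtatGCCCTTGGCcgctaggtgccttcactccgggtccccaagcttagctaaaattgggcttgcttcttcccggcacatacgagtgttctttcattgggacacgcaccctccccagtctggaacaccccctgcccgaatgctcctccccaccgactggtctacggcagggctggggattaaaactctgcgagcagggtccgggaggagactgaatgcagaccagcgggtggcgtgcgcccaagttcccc
Edn3: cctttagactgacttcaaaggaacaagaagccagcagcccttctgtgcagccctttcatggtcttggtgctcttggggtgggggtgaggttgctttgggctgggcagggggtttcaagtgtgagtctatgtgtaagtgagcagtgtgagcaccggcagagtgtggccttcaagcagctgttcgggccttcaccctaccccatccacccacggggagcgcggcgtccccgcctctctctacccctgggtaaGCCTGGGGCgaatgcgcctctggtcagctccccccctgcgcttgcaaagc
The TFAP2 letters GCCNNNGGC occurred once in the windows of *Kit*, *Ednrb* and *Edn3*, that is, at genes with reads and at a gene listed at 0. They occurred in 16.6% of all 32851 RefSeq windows. In *Kit* the match lay at bases -134 to -126 from the RefSeq start, in *Ednrb* at -195 to -187 and in *Edn3* at 1 to 9, in the exon. The *Kitl* window held TATAAA at -25 to -20, a match found in 13.6% of all windows. The E-box letters CACGTG, present in 7.2% of all windows, and CATGTG, present in 14.2%, were in none of the 4 windows shown, and neither was the SOX-like ACAAAG (18.7% of windows). Among the other 5 genes, GCCNNNGGC was in the windows of *Edn2* and *Ece2* and in 1 of 4 of *Ece1*, which also held CACGTG, and *Edn1* and *Ednra* had no match to any of the 5 motifs.

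*Kit* (ENSMUSG00000005672) spans 75970941 to 76052747 on chromosome 5 (mm9, plus strand), with 6 annotated transcripts and 1 value for the gene. Replicate 1 had 0.67 FPKM of *Kit*, replicate 3 had 0.59 and replicate 4 had 0.78. The receptor was thus below 1 FPKM in all libraries, and its mean was at rank 10604 of 22698 genes. With exons joined over 5831 bases, these values came to about 209, 162 and 301 reads. Counting error alone would give a coefficient of variation of 6.68%, against 14.0% measured. The 2 genes with the most similar values over the 3 libraries, by Euclidean distance of log2(FPKM + 0.1), were *Ccdc122* (distance 0.06) and *Phyhipl* (0.09).

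The labelled cell type was checked against its markers. All 8 melanocyte markers were at 1 FPKM or more in every library (100%, against 44.1% of all genes). They ran from *Mitf*, the master regulator of the lineage, at 22.1 ± 4.7 FPKM, to *Tyrp1*, an enzyme of melanin synthesis, at 3144 ± 434 (SD, n = 3). Mast cells, another cell type that carries KIT, left almost no trace. Of their 6 markers, 5 were listed at 0 in every library, and the 6 summed to between 0 and 0.01 FPKM. The other receptor genes of the same structural class were lower than *Kit*, with mean levels of 0.08 FPKM for *Pdgfrb*, 0.08 for *Pdgfra* and 0.01 for *Csf1r*, and *Flt3* was listed at 0. *Kit* was the highest of the 5 class III receptor genes in each library. Of 7 ligand genes for those other receptors, 4 were at 1 FPKM or more in every library (57.1%, a share near the 44.1% of all genes), led by *Pdgfa*, a growth factor for fibroblasts, at 80.3 ± 7.6 FPKM, before *Pdgfb* at 15.2 ± 4.0 and *Csf1* at 15.0 ± 0.8 (SD, n = 3).

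*Kitl* (ENSMUSG00000019966; chromosome 10, plus strand, 99478264 to 99563047) had levels of 2.75, 2.21 and 3.5 FPKM in replicates 1, 3 and 4. Its lowest library lay above the highest library of *Kit*. Within libraries, *Kitl* was 4.1 times *Kit* in replicate 1, 3.75 times in replicate 3 and 4.49 times in replicate 4. The log2 ratio of *Kit* to *Kitl*, with 0.1 FPKM added to both, was -1.89 ± 0.14 (SD, n = 3), and it was below 0 in 3 of 3 libraries. The difference was larger than the spread between libraries. The files hold 1 value per gene, so the membrane-bound and the readily shed form of KIT ligand, which differ by an exon, could not be separated among its 4 annotated transcripts.

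Most markers of the skin cells that usually supply KIT ligand were at low levels, and the source of the *Kitl* reads was not tested. None of 6 keratinocyte markers reached 1 FPKM in every library (0%, against 44.1% of all genes). *Trp63*, which defines basal keratinocytes, and *Krt1* were listed at 0 throughout, and the 6 summed to 0.54, 0.38 and 0.72 FPKM in replicates 1, 3 and 4. Most of each sum was *Krt10*, at 0.51, 0.29 and 0.67 FPKM in the same libraries. Of 6 fibroblast markers, *Col1a1* reached 1.54 ± 0.22 FPKM (SD, n = 3), *Lum* was listed at 0 in every library and *Dcn* had a mean of 0.01 FPKM. The 5 endothelial markers summed to between 0.04 and 0.06 FPKM.

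The genes listed for shedding of KIT ligand from the membrane were unequal, and which of them cuts it in these cells was not tested. *Adam10*, a broad membrane sheddase, had 120.3 ± 22.9 FPKM and *Adam17*, its relative, 12.1 ± 1.9 (SD, n = 3). *Adam33* and *Mmp9*, which have also been linked to KIT ligand shedding, had means of 0.01 and 0.04 FPKM.

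Most genes listed for the route inside the cell from KIT were expressed, and activity of the route was not measured. Of 26 genes for adaptors, kinases, phosphatases and other proteins that bind or follow the active receptor, 24 were at 1 FPKM or more in every library (92.3%, against 44.1% of all genes), with a median level of 11.4 FPKM. The highest were *Shc1*, an adaptor to the RAS route, at 79.6 ± 12.1 FPKM, *Dok1*, a docking protein that restrains tyrosine kinases, at 58.4 ± 8.7, and the kinase gene *Src* at 45.9 ± 10.2 (SD, n = 3). The 2 below 1 FPKM in a library were *Sh2b2*, an adaptor, at 1.11 ± 0.27, and *Socs1*, a feedback inhibitor, at 0.83 ± 0.25 (SD, n = 3). *Kit* itself, at 0.68 FPKM, was lower on average than each of these 26 genes. All 4 genes for factors known to control *Kit* or *Ednrb* were at 1 FPKM or more in every library (100%, against 44.1% of all genes). Of these, *Sox10*, *Pax3* and *Mitf* are also among the melanocyte markers above, so the count in part repeats that check. *Sox10* had 468 ± 86 FPKM, *Tfap2a* 37.2 ± 1.5 and *Pax3* 33.1 ± 4.9 (SD, n = 3).

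**Figure D2:**
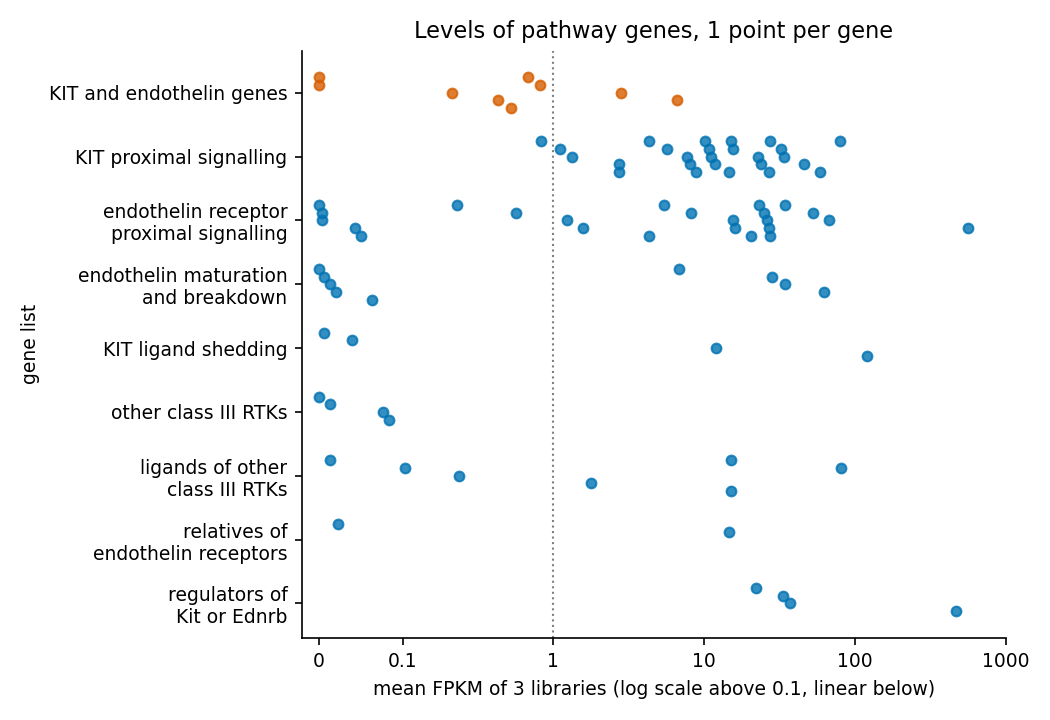
Mean FPKM of 3 libraries (horizontal axis, logarithmic above 0.1 and linear below) for each gene of 9 lists, 1 point per gene, spread vertically for legibility only, with a dotted line at 1 FPKM and RTK for receptor tyrosine kinase. Of the 9 KIT and endothelin genes (orange), 2 lie right of the line, and both were at 1 FPKM or more in every library. At 1 FPKM or more in every library were 24 of 26 genes next to KIT and 16 of 24 next to the endothelin receptors. *Sh2b2* (mean 1.11) and *Plcb4* (mean 1.23) also lie right of the line but were below 1 FPKM in a library.

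*Ednrb* (ENSMUSG00000022122; chromosome 14, minus strand, 104213842 to 104243390) stood at 7.06 FPKM in replicate 1, at 5.29 in replicate 3 and at 7.54 in replicate 4. All of its values lay above those of the other 8 genes. It took rank 6643 of 22698 genes, with about 1528, 1004 and 2012 reads behind the 3 values, and among the 13648 genes above 0 in every library it stood at the 51.3rd percentile. *Ednrb* was 10.5 times *Kit* in replicate 1, 8.97 times in replicate 3 and 9.67 times in replicate 4. The log2 ratio of *Kit* to *Ednrb* was -3.10 ± 0.13 (SD, n = 3), the ratio with the smallest spread of the 8 examined. The 2 genes nearest to *Ednrb* in their values were *Ddx52* (distance 0.04) and *Rad17* (0.06).

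*Ednra* (ENSMUSG00000031616; chromosome 8, minus strand, 80186930 to 80248363), the receptor known from smooth muscle and from neural crest of the face, had 0.4, 0.46 and 0.42 FPKM in replicates 1, 3 and 4. These came to about 117, 118 and 152 reads, so the gene was above the level of 3 reads in every library. The values of the 2 endothelin receptors did not overlap. *Ednrb* was 17.6 times *Ednra* in replicate 1, 11.5 times in replicate 3 and 18.0 times in replicate 4, and their log2 ratio was 3.66 ± 0.34 (SD, n = 3). An annotated antisense RNA shares 91 exon bases with *Ednra*, or 1.66% of its length, and the libraries were stranded, but the strand setting of the counting is not given in the sources used here. Of the orphan receptors related to the endothelin receptors, *Gpr37* had 14.6 ± 0.6 FPKM (SD, n = 3), above *Ednrb* in every library, and *Gpr37l1* had a mean of 0.02.

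Endothelin transcripts were scarce next to the receptor. *Edn1* (ENSMUSG00000021367; chromosome 13, plus strand, 42396639 to 42403358), the endothelin that keratinocytes release after ultraviolet light, had 0.23, 0.27 and 0.14 FPKM in replicates 1, 3 and 4. The lowest value was that of the library with the largest estimated size. The values came to about 29, 30 and 22 reads, and the coefficient of variation of *Edn1*, 31.2%, was the largest of the genes with reads, against 19.2% from counting alone. *Ednrb* was 30.7, 19.6 and 53.9 times *Edn1* in replicates 1, 3 and 4. The log2 ratio was 4.43 ± 0.56 (SD, n = 3), and the receptor was higher in 3 of 3 libraries.

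*Edn3* (ENSMUSG00000027524; chromosome 2, plus strand, 174586120 to 174609543), the ligand that melanoblasts meet during migration, was listed at 0 in all 3 libraries. Over its 4113 exon bases, 3 reads would have given 0.014, 0.016 and 0.011 FPKM in replicates 1, 3 and 4. Because the values were rounded to 2 decimals, at most 1 read could hide behind each 0. *Edn2* (ENSMUSG00000028635; chromosome 4, plus strand, 119833811 to 119839965), an endothelin of gut and ovary, was listed at 0 as well, where 3 reads would have given 0.038, 0.044 and 0.031 FPKM. None of 8 genes that every cell uses was at 0 in any library, but their levels were very unequal. *Actb*, a cytoskeletal actin, was between 2016 and 2265 FPKM, while *Gapdh*, an abundant enzyme of glycolysis, was between 7.5 and 7.96 and *Ppia*, an abundant protein-folding enzyme, between 1.74 and 1.86. A gene's listed level can thus be low for a gene known to be abundant, and comparisons of levels between genes carry an error that the spread between libraries does not show. Whether it touches any of the 9 genes was not tested. The ratio of *Ednrb* to either ligand has no finite value and is not given.

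**Figure D3:**
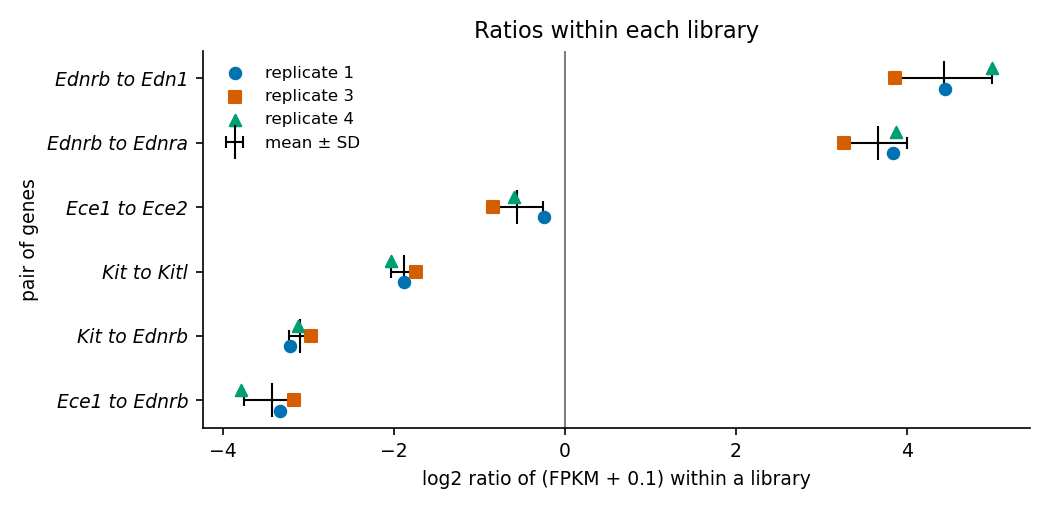
Log2 ratio of (FPKM + 0.1) within each library (horizontal axis) for the 6 pairs of genes whose members both had reads, with the mean and SD of the 3 libraries as bars and a line at 0. *Ednrb* exceeds *Edn1* and *Ednra* in every library, and *Kit* lies below *Kitl* and *Ednrb* in every library.

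The 2 converting enzymes were both low. *Ece1* (ENSMUSG00000057530; chromosome 4, plus strand, 137418152 to 137521144), the enzyme that makes most circulating endothelin, had 0.61, 0.5 and 0.45 FPKM in replicates 1, 3 and 4. *Ece2* (ENSMUSG00000022842; chromosome 16, plus strand, 20611666 to 20646558), a relative active at acidic pH and known from neural tissue, had 0.74, 0.98 and 0.73 FPKM. The values of the 2 genes did not overlap, and the log2 ratio of *Ece1* to *Ece2* was -0.56 ± 0.30 (SD, n = 3), below 0 in 3 of 3 libraries. The *Ece2* value needs care, because 2 of its 11 annotated transcripts end at 20619080, before the internal start at 20629901 that 6 others use. The other 3 run from upstream exons past the internal start. RefSeq names the upstream unit as a separate gene, *Eef1akmt4*, which encodes a methyltransferase. Exons upstream of the internal start make up 24.6% of the exon bases of *Ece2*. Reads of the 2 units cannot be split in these files, so the order of *Ece1* and *Ece2* is uncertain. *Ece1* was below *Ednrb* in 3 of 3 libraries, with a log2 ratio of -3.43 ± 0.33 (SD, n = 3).

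Of 9 other proteases that cut endothelins or their precursors, or are related to the converting enzymes, 4 were above both converting enzymes in every library and 5 were below both. *Mme*, which encodes neprilysin, a relative of the converting enzymes that degrades endothelins and other peptides, had 63.3, 46.0 and 76.4 FPKM in replicates 1, 3 and 4. The convertase genes *Pcsk6* and *Furin* followed with 34.3 ± 7.2 and 28.1 ± 7.9 FPKM (SD, n = 3). The 4, with *Pcsk7*, another convertase gene, as the lowest, were also those at 1 FPKM or more in every library (44.4%, against 44.1% of all genes). The 5 others had means from 0 to 0.06 FPKM, and *Kel*, the blood-group relative of the converting enzymes, was listed at 0.

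Downstream of the endothelin receptors, 16 of 24 genes for G proteins, phospholipases, calcium channels and desensitizing proteins were at 1 FPKM or more in every library (66.7%, against 44.1% of all genes), with a median level of 11.8 FPKM. *Gnai2*, an inhibitory G protein, was the highest at 558 ± 122 FPKM, followed by *Gna11*, a G protein that couples EDNRB to phospholipase C, at 67.5 ± 15.8, and the phospholipase gene *Plcb3* at 52.6 ± 1.9 (SD, n = 3). Paralogs differed widely, since *Plcb1* and *Plcb2* had means of 0.05 and 0.04 FPKM, and *Rgs4*, which shortens G protein signals, was listed at 0. Of these 24 genes, 2 were under 3 reads in every library.

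By mean level the order was *Ednrb*, *Kitl*, *Ece2*, *Kit*, *Ece1*, *Ednra*, *Edn1*, then *Edn2* and *Edn3*. The 3 values of *Ednrb* lay above those of *Kitl*, those of *Kitl* above those of *Ece2*, those of *Ednra* above those of *Edn1*, and those of *Edn1* above 0. The ranges of *Ece2* and *Kit*, of *Kit* and *Ece1*, and of *Ece1* and *Ednra* overlapped, so these neighbours did not differ beyond the spread between libraries, although *Kit* was above *Ece1* and *Ece1* above *Ednra* within each library. For each of the 8 ratios, those to *Edn2* and *Edn3* included with the added 0.1 FPKM, an exact two-sided sign-flip permutation test over the 3 libraries gave p = 0.25, which is the smallest p that 3 libraries allow, and Benjamini-Hochberg adjustment over the 8 left it at 0.25. With 1 FPKM added in place of 0.1, the ratios of *Kit* to *Kitl* and of *Ednrb* to *Edn1* were -1.17 and 2.64. No ratio could pass a threshold of 0.05 in this design.

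The spread between libraries moved with GC content. Across the 10006 genes with a coding transcript and at least 1 FPKM in every library, the log2 ratio of libraries followed GC content. Spearman's rho between GC content and that ratio was 0.78 for replicate 3 to replicate 4. It was -0.72 for replicate 1 to 3 and 0.70 for replicate 1 to 4. The ratio used below, of replicate 4 to replicate 3, thus fell as GC content rose. This is a description across genes, which share the libraries and are not independent replicates. *Kitl*, with the lowest GC content of the 9 genes at 39.4%, was higher in replicate 4 than in replicate 3 by 0.64 on the log2 scale, where genes of like GC content had a median of 0.60. For *Ednrb*, at 43.5% GC, the same ratio was 0.50 beside a median of 0.44, and for *Kit*, at 48.5% GC, it was 0.35 beside 0.14. The ratios of *Kitl* and *Ednrb* were thus close to those of other genes of their base composition.

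*Edn1* went the other way, at -0.62 where genes of like GC content had a median of 0.20 with an SD of 0.32 (500 genes), and it is the gene with the fewest reads. Those 500 genes were at 1 FPKM or more in every library, above the level of *Edn1*, so their SD does not cover the counting error of *Edn1*. *Ednra* and *Ece2* were also lower in replicate 4, with ratios of -0.11 and -0.38 against medians of 0.20 and -0.06, and *Ece1* had -0.13 against -0.27. What separates the libraries was not tested.

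**Figure D4:**
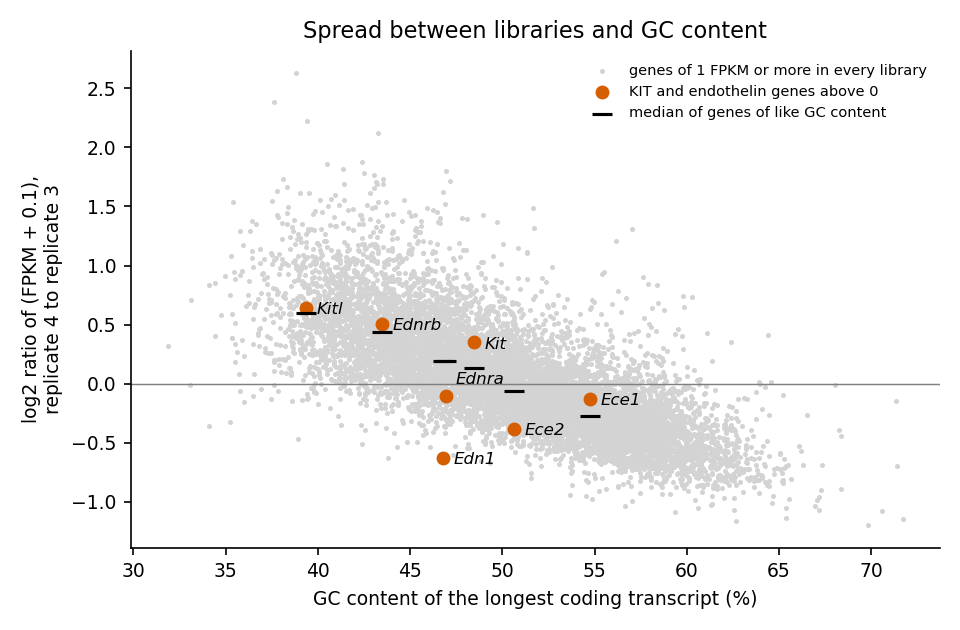
Log2 ratio of (FPKM + 0.1) in replicate 4 to replicate 3 (vertical axis) against the GC content of the longest coding transcript (horizontal axis), for 10006 genes (grey) and the 7 KIT and endothelin genes with reads (orange), with the median of genes of like GC content as a black bar. *Kitl* and *Ednrb* lie next to their bars, and *Edn1* lies at -0.62, below its bar at 0.20.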

How the data were processed

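RNA was measured in 3 libraries of melan-a cells. The library size behind the FPKM was estimated at 53600000, 47000000 and 66100000 reads in replicates 1, 3 and 4. The deposited values are FPKM with 2 decimals, with TMM scaling by the authors per the file names. Per the paper's methods, 10 bases were trimmed, reads were aligned to mm9 with STAR 2.3.0e, rRNA reads were removed and htseq-count 0.5.3p3 was run on Ensembl release 67. The gene length behind the FPKM is not given in the sources used here. Genes were placed on mm9 with the GENCODE version of Ensembl release 65. Library size was estimated as the size at which low values of genes with 1 transcript fall on whole reads (mean distance 0.047, 0.049 and 0.047 reads, from 73, 114 and 46 genes), and reads are FPKM times joined exon length times this size. Under TMM scaling this size can differ from the number of reads sequenced. Read-based errors and 3-read floors cover counting error only. For genes with several transcripts, joined exons gave whole reads more closely than the longest transcript in each library, on 12, 16 and 3 genes. Mean distances were 0.15 against 0.18 reads in replicate 1, 0.12 against 0.22 in replicate 3 and 0.02 against 0.25 in replicate 4. In replicates 1 and 3 the joined-exon distances were above those of genes with 1 transcript, under looser limits for choosing genes. Read numbers of genes with several transcripts are thus less certain. No count test was applied, since the whole reads of single genes are estimates.

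Ratios were taken as log2(FPKM + 0.1) within a library. The fold changes between genes given as times are plain FPKM ratios. GC content is that of the longest coding transcript, in 20 bins. Members and lists were chosen with earlier results of these data known. Named genes were the 9 members, the 3 highest of each list by mean, the 2 genes nearest to *Kit* and to *Ednrb*, and, chosen after their values were seen, the low genes and markers named above. All list symbols were matched. The result of 1 marker list is not reported here. Alternatives were other pseudocounts, rescaled libraries, a GC adjustment, other ranks and thresholds, and each library left out. The library-size and GC scripts were tested on simulated data. Software versions were pandas 2.3.3, numpy 2.4.6, matplotlib 3.10.9 and scipy 1.17.1, under Python 3.11.15.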

Additional observations from a re-analysis of the deposited data

How the results depend on the processing

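The direction of the 8 ratios was fixed by the values, since each ratio had 1 sign in all 3 libraries, so that it held under the 56 alternatives says nothing about stability, and only sizes could move. A pseudocount of 1 FPKM moved ratios toward 0, to -1.17 for *Kit* to *Kitl*, 2.64 for *Ednrb* to *Edn1*, 2.41 for *Ednrb* to *Ednra* and -0.26 for *Ece1* to *Ece2*, because these genes are low. With a library left out, the ratio of *Ece1* to *Ece2* lay between -0.72 and -0.42. The number of the 9 genes at the threshold in every library was 2 at 1 FPKM (44.1% of all genes), 1 at 5 FPKM and 4 at 0.5 FPKM. The share of all genes was not computed at 5 or 0.5 FPKM, so those counts cannot be set against it. The other 43 alternative counts over the lists stayed within 1.5 times. Ranked only among genes above 0 in every library, the 7 genes with reads moved down, for example *Kit* from the 53.3rd to the 22.3rd percentile. With 1 group, samples could not be paired across conditions, and the ratios paired genes within a library. Depth limits *Edn1*, at 22 to 30 reads, and *Edn2* and *Edn3*.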
